A study of Arabidopsis thaliana with 6 samples.

Results

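Aliphatic glucosinolates are sulfur-rich defence compounds made from methionine, and 10 genes of their synthesis were followed here among the 29670 loci measured on the arrays. The genes were taken by locus, as a list with no threshold on their values: the regulators MYB28 (AT5G61420) and MYB29 (AT5G07690), the chain-elongation genes BCAT4 (AT3G19710), MAM1 (AT5G23010) and MAM3 (AT5G23020), the core-structure genes CYP79F1 (AT1G16410), CYP79F2 (AT1G16400) and CYP83A1 (AT4G13770), and the side-chain genes FMO GS-OX1 (AT1G65860) and AOP2 (AT4G03060). All 10 were measured. RNA was compared between the Arabidopsis thaliana accession Col and the line epiRIL12, with 3 arrays each, from untreated plants aged 14 days and grown in long days. The epigenetic recombinant inbred lines of this family descend from a cross of Col with a mutant of MET1, the CG methylation maintenance enzyme. Their genomes thus mix chromosome segments of both parents, whose DNA sequence and methylation were not examined here. epiRIL12 is 1 such line, and its values stand for that line only.

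Methionine enters the pathway by deamination in the cytosol, its side chain is lengthened in cycles in the chloroplast, and cytochrome P450 enzymes then turn the lengthened amino acid into the thiohydroximate core that is given glucose and sulfate. Enzymes acting last alter the side chain and so, together with the chain length, set which aliphatic glucosinolate a plant stores in its leaves. The R2R3-MYB factors MYB28, MYB29 and MYB76 are known to switch on the enzyme genes, with MYC factors of the jasmonate pathway as partners. Among accessions, the MAM and AOP loci are known as the main sources of natural variation in chain length and side-chain type.

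Array medians lay between 6.80 and 6.84 on the log2 scale, and both arrays numbered 3 had a slightly wider spread over loci than the others. The labels call the material whole seedlings in one place and rosette leaves in another. The 5 leaf mesophyll markers (RBCS1A, LHCB1.3, LHCB1.1, RCA and CA1) lay between 14.4 and 15.5 on every array, and the 6 root markers, whose mean log2 value was 6.10 to 6.38 per array, lay between 4.02 and 9.10, with PYK10, a glucosidase abundant in roots, the highest of them. No background level was given, so the root markers do not settle whether roots were present. None of the 17 marker genes for leaf, root, vascular and guard cells was called in limma, beside 0.974% of all loci. Before adjustment 1 of them, the xylem gene XCP1, was under 0.05, as were 7.04% of all loci. The labels do not tie the 3 samples of a genotype to separate cultures or harvests, and the p-values cover only their spread, which may be technical.

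None of the 10 genes passed the test between genotypes (limma, Benjamini-Hochberg adjustment over all loci, adjusted p under 0.05 for a call). Over all loci 289 of the 29670 were called (0.974%), 264 of them higher and 25 lower in epiRIL12. Among the 25178 protein-coding loci, the class of each of the 10 genes except AOP2, 45 were called. The smallest adjusted p in limma was 0.530, that of AOP2. Before adjustment AOP2 alone of the 10 genes was under 0.05, a limit that 7.04% of all loci met. The 8 genes other than the regulators all had lower means in epiRIL12. Among these 8, CYP79F1, CYP79F2 and FMO GS-OX1 had log2 differences of only -0.054, -0.057 and -0.059. Those of the regulators MYB28 and MYB29 were 0.047 and 0.0067. The log2 differences, epiRIL12 minus Col, ran from -0.45 to 0.047 with a median of -0.10, beside a median of -0.023 over all loci, and 8 of the 10 were below 0, as were 56.6% of all loci. The tissue is a mixture of cells, so fewer cells that make these transcripts and less RNA per cell cannot be told apart.

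**Figure D1:**
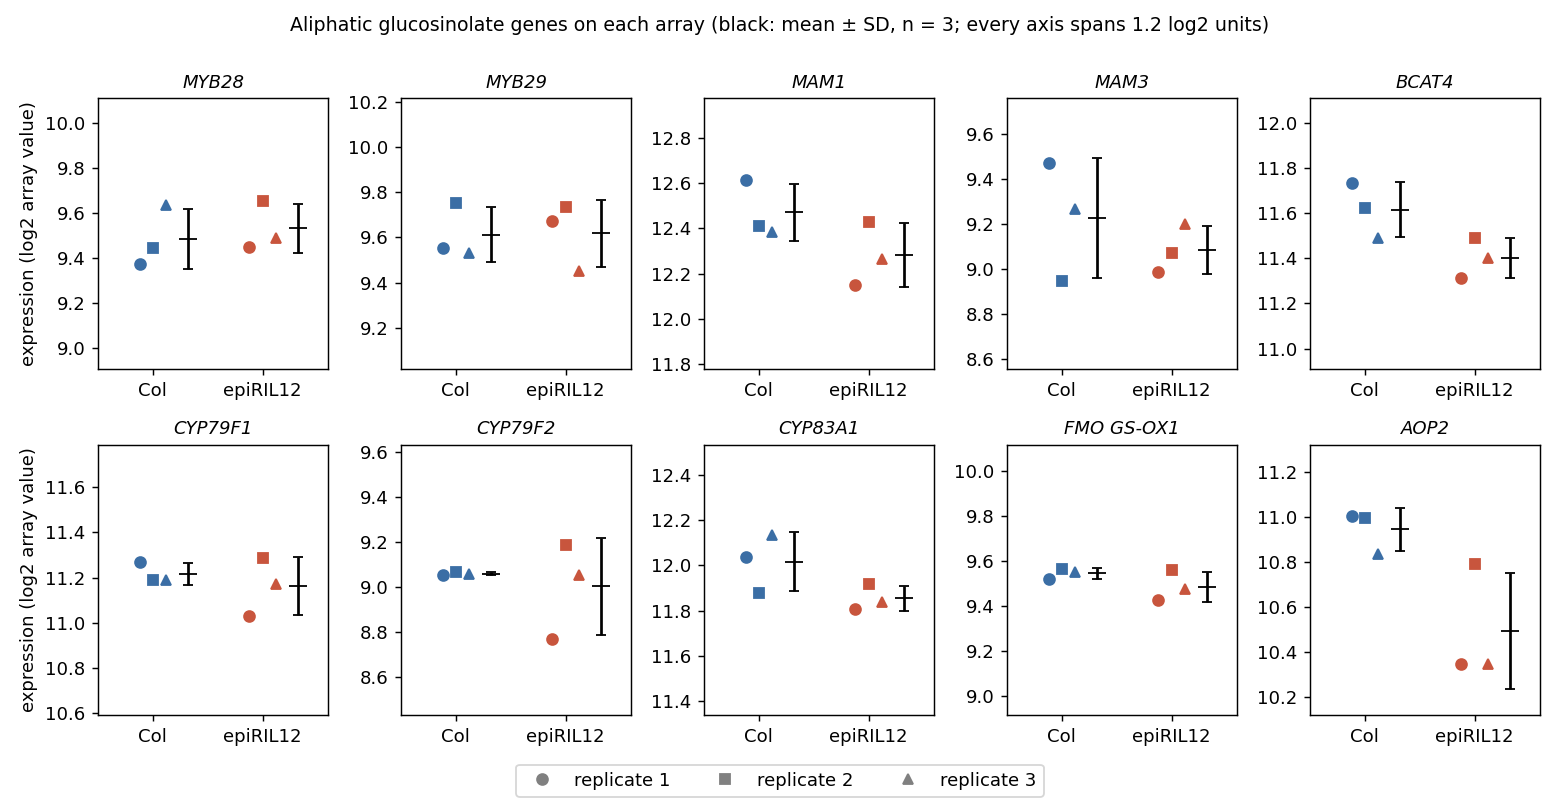
Log2 array values of the 10 genes on each array (points, shaped by replicate number), with the mean and SD of each genotype in black (n = 3). Every panel spans the same range of log2 units. In 9 panels the genotypes overlap, and AOP2 is the panel in which the 3 epiRIL12 points lie below the 3 Col points.

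MYB28 is the main activator of the aliphatic pathway and is needed for long-chain products. Its log2 values in Col were 9.37, 9.44 and 9.63, and in epiRIL12 9.45, 9.65 and 9.49. The genotypes overlapped, and the difference of 0.047 (SE 0.11, 95% interval -0.22 to 0.31, limma adjusted p = 0.985) was smaller than the SD within either genotype (0.13 and 0.11). MYB29, which acts beside MYB28 on short-chain products, stood at 9.55, 9.75 and 9.53 in Col and at 9.67, 9.73 and 9.45 in epiRIL12. Both genotypes covered nearly the same range, with a difference of 0.0067 (SE 0.12, interval -0.27 to 0.29, limma adjusted p = 0.998). Its sign turned to -0.017 when each array was centred on its median. The sign of MYB28 turned with Col replicate 1 or epiRIL12 replicate 2 left out (-0.0069 and -0.013), so neither gene has a settled direction.

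BCAT4 makes the keto acid from methionine that enters chain elongation. It stood at 11.74, 11.62 and 11.49 in Col and at 11.31, 11.49 and 11.40 in epiRIL12. The genotypes overlapped by 0.00093 on the log2 scale, the highest epiRIL12 array reaching just above the lowest Col array. The difference was -0.21 (SE 0.10, 95% interval -0.46 to 0.035, limma adjusted p = 0.802), which corresponds to 86.2% of the Col level.

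MAM1 and MAM3 are neighbours on chromosome 5 and encode the condensing enzymes of the elongation cycle, MAM1 mostly for short chains and MAM3 for all chain lengths. MAM1 stood at 12.62, 12.41 and 12.39 in Col and at 12.15, 12.43 and 12.26 in epiRIL12. On 2 of the 3 epiRIL12 arrays it was below every Col array, and on replicate 2 it lay within the Col range; the difference was -0.19 (SE 0.12, interval -0.47 to 0.087, limma adjusted p = 0.874). MAM3 had a difference of -0.14 (SE 0.15, interval -0.50 to 0.22, limma adjusted p = 0.959), and all its epiRIL12 values (8.99 to 9.20) lay inside the range of Col (8.94 to 9.47). That difference was -0.019 without Col replicate 1 and -0.28 without Col replicate 2. The spread of MAM3 in Col (SD 0.26) was the largest of any of the 10 genes in either genotype. MAM1 and MAM3 are similar in sequence, and probes were not examined here, so signal shared between them is possible.

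CYP79F1 and CYP79F2, also neighbours, encode the P450 enzymes that turn elongated methionine into aldoximes, CYP79F1 on short and long chains and CYP79F2 on long chains. CYP79F1 stood at 11.27, 11.19 and 11.19 in Col and at 11.03, 11.29 and 11.17 in epiRIL12. CYP79F2 stood at 9.05, 9.07 and 9.06 in Col and at 8.77, 9.19 and 9.05 in epiRIL12. In both genes the epiRIL12 values ran from below to above all 3 Col values, and epiRIL12 varied more (SD 0.13 and 0.21) than Col (0.047 and 0.0078). The differences were -0.054 for CYP79F1 (SE 0.10, 95% interval -0.29 to 0.19) and -0.057 for CYP79F2 (SE 0.12, interval -0.35 to 0.24). Without epiRIL12 replicate 1 they became 0.012 and 0.061, so that array alone set their sign. The same caution on shared probe signal holds for this pair.

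CYP83A1, the P450 enzyme that oxidises the aldoximes, stood at 12.04, 11.88 and 12.14 in Col and at 11.81, 11.92 and 11.84 in epiRIL12. Col replicate 2 lay below the highest epiRIL12 array, so the groups overlapped. The difference was -0.16 (SE 0.10, interval -0.40 to 0.081, limma adjusted p = 0.883).

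FMO GS-OX1 oxidises methylthioalkyl to methylsulfinylalkyl glucosinolates, the chief aliphatic form in Col leaves. It was the steadiest of the 10 genes, with Col between 9.52 and 9.56 and epiRIL12 between 9.42 and 9.56 (pooled SD within genotypes 0.050, against a median of 0.17 over all loci). Its difference was -0.059 (SE 0.085, 95% interval -0.26 to 0.14, limma adjusted p = 0.974).

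AOP2 converts methylsulfinylalkyl into alkenyl glucosinolates in accessions that carry an active copy. In Col the gene is known to be transcribed but to make no active enzyme, and the annotation used here classes its locus as a transcribed pseudogene. Its log2 values were 11.01, 10.99 and 10.84 in Col and 10.35, 10.79 and 10.35 in epiRIL12. All 3 epiRIL12 arrays were below all 3 Col arrays, by a gap of 0.043 between the nearest ones, and 6.89% of all loci had genotypes that parted in this direction. The difference was -0.45 (SE 0.15, interval -0.80 to -0.10), or 73.2% of the Col level, with a limma adjusted p of 0.530, so AOP2 was not called. Under the other settings and with single arrays left out the difference lay between -0.60 and -0.37 and the adjusted p between 0.157 and 0.865.

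The 95% intervals of the 10 differences, each taken on its own without adjustment over genes, reached from -0.80 at the lowest to 0.31 at the highest. A 2-fold change in either direction (1 on the log2 scale) thus lay outside the interval of each of the 10 genes. Changes of the size seen for BCAT4, MAM1 and CYP83A1 (86.2% to 89.4% of the Col level) could not be told from no change with 3 arrays per genotype. The authors' deposited table gave the same sign for all 10 genes, a log2 difference of -0.43 for AOP2 (unadjusted p = 0.0540) and 0 genes of the 10 with an unadjusted p under 0.05.

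The 10 genes lie on chromosomes 1, 3, 4 and 5, and none on chromosome 2. In locus order, the 5 measured loci on each side of each gene made 84 distinct loci, the paired MAM and CYP79F genes among them. Of these 0 were called in limma, beside 0.974% of all loci and 45 of the 25178 protein-coding loci. Before adjustment 4 of the 84 were under 0.05, as were 7.04% of all loci. Around each gene 0 to 1 of the 10 loci were of a pseudogene class. BCAT4 is the one gene of the 10 that overlaps another annotated gene, IKU2, and the labelled target was double-stranded and kept no strand; IKU2 had a difference of -0.010. At the AOP locus on chromosome 4 the related genes stand side by side. AOP1, whose glucosinolate role is unknown, stood at 6.99, 6.97 and 7.00 in Col and at 6.68, 6.89 and 6.75 in epiRIL12, a difference of -0.21 (SE 0.093, limma adjusted p = 0.744). Its genotypes did not overlap, as those of AOP2 did not, and 6.89% of all loci parted in this direction. Probes were not examined here, so signal shared among these related genes is possible. AOP3, which makes hydroxyalkyl glucosinolates in other accessions, had a difference of 0.090 (SE 0.19) at log2 values of 4.23 to 4.91, near the lower quartile of the arrays (4.71 to 4.90), where a change may not be visible. BSL1, the next locus beyond AOP1, had a difference of -0.035.

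A wider list of 33 further genes of the aliphatic pathway was then examined. All were measured and 0 were called, beside 0.974% of all loci and 45 of the 25178 protein-coding loci. The median log2 difference of the 33 was -0.046, beside -0.023 over all loci. It was -0.096 without epiRIL12 replicate 2 and -0.0026 without both arrays numbered 3. Of the 33, 23 were below 0, where 56.6% of all loci were, and 1 was under 0.05 before adjustment in limma, as were 7.04% of all loci.

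**Figure D2:**
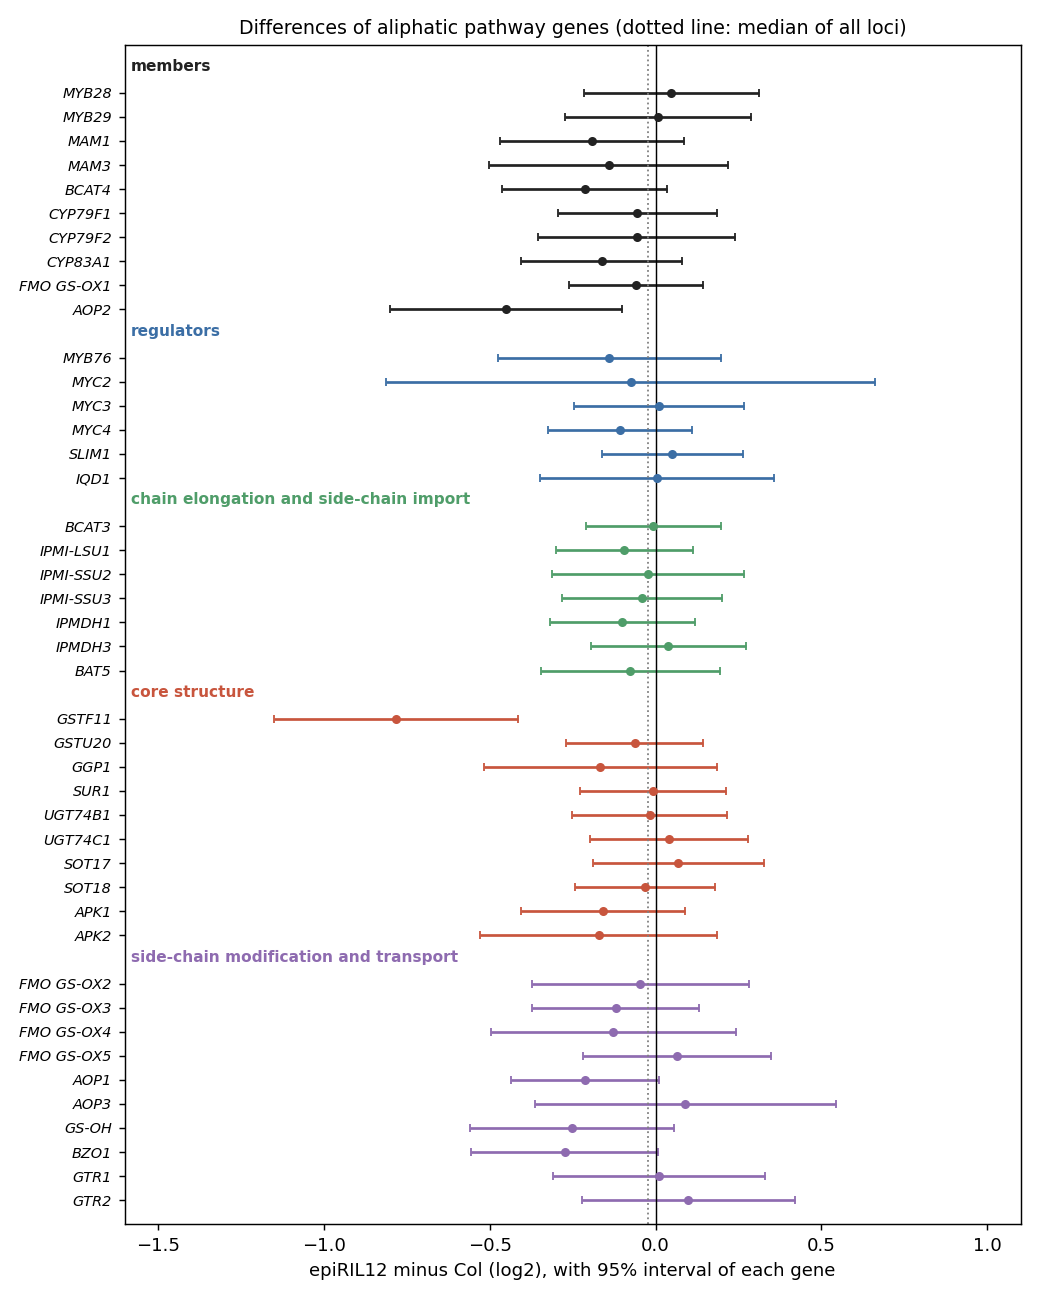
Log2 differences (epiRIL12 minus Col, points) with each gene's own 95% interval (bars) for the 10 genes, labelled members, and for 33 further genes of the pathway grouped by role. Most points lie between -0.3 and 0.1, and the intervals of AOP2 and GSTF11 are the ones that do not reach 0.

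Among the 6 other regulators none was called, beside 0.974% of all loci. All 6 had overlapping genotypes, as did 26084 of the 29670 loci. MYB76, next to MYB29 on chromosome 5, had a difference of -0.14 (SE 0.14), MYC4 -0.11 (SE 0.091) and SLIM1, a regulator of the sulfur-starvation response, 0.051 (SE 0.088). MYC2, singled out after its values were seen, was the most variable of the 43 pathway genes. It stood at 9.10, 8.58 and 9.30 in Col and at 8.32, 9.39 and 9.05 in epiRIL12, so arrays of one genotype differed by up to 1.07 on the log2 scale, while the difference between genotypes was -0.075 (SE 0.31).

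The 7 further genes of chain elongation and chloroplast import had differences from -0.099 to 0.038. IPMDH1, the dehydrogenase of the elongation cycle, had -0.099 (SE 0.091), IPMI-LSU1, the large subunit of the isomerase, -0.094 (SE 0.087), and BAT5, the chloroplast transporter of the keto acids, -0.076 (SE 0.11). Of the 7, 6 were below 0, as were 56.6% of all loci, and 0 were called, beside 0.974% of all loci.

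Of 10 further genes of the core structure, GSTF11 had the largest difference. It encodes a glutathione transferase assigned to the aliphatic branch by its expression together with the pathway. Its log2 values were 7.15, 7.64 and 7.17 in Col and 6.55, 6.44 and 6.64 in epiRIL12. The genotypes did not overlap, and 6.89% of all loci parted in this direction. The difference was -0.78, or 58.1% of the Col level (SE 0.15, 95% interval -1.15 to -0.41, not adjusted for picking this gene from its list). With a limma adjusted p of 0.132 it was not called, and over the settings tried the adjusted p ran from 0.0929 to 0.469. GSTU20, the other transferase of this step, had a difference of -0.063 (SE 0.087). APK1 and APK2, kinases that supply activated sulfate for the last step of core synthesis, had -0.16 (SE 0.10) and -0.17 (SE 0.15), and the sulfotransferases SOT17 and SOT18 0.069 (SE 0.11) and -0.031 (SE 0.088).

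Of the 10 side-chain and transport genes other than FMO GS-OX1 and AOP2, 0 were called, beside 0.974% of all loci. GS-OH, needed to hydroxylate butenyl glucosinolates, stood at 12.71, 12.47 and 12.73 in Col and at 12.20, 12.53 and 12.42 in epiRIL12 (difference -0.25, SE 0.13, limma adjusted p = 0.812). Col replicate 2 lay inside the epiRIL12 range. BZO1, an enzyme of benzoyloxy glucosinolates of seeds, had -0.27 (SE 0.12) at low log2 values of 4.82 to 5.32. The 4 other FMO GS-OX genes ranged from -0.13 to 0.065, and the transporters GTR1 and GTR2, which load glucosinolates into the phloem, had 0.010 (SE 0.13) and 0.098 (SE 0.13).

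**Figure D3:**
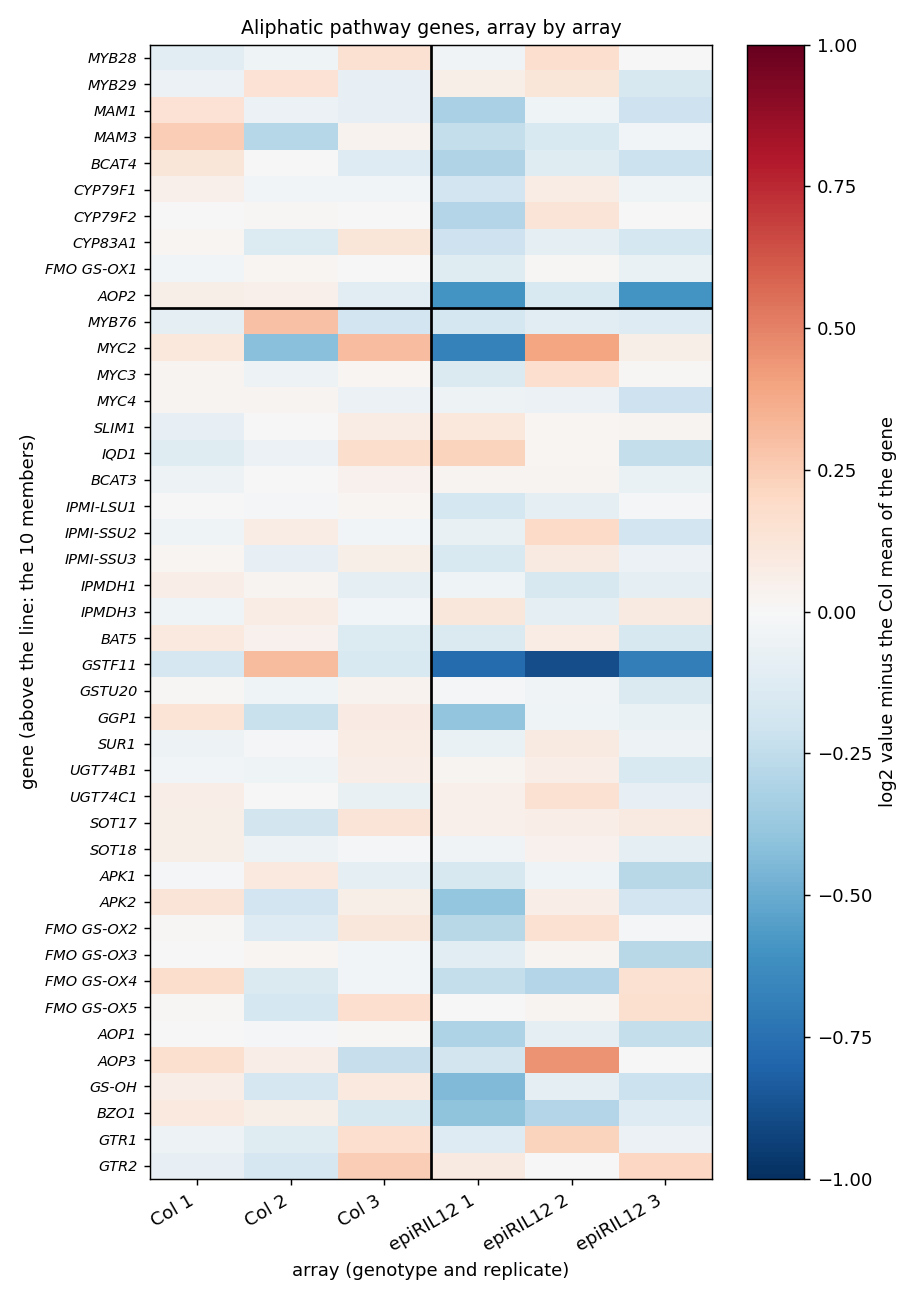
Log2 value of each aliphatic pathway gene on each array minus the gene's mean in Col (colour), with the 10 genes above the horizontal line and the genotypes on either side of the vertical line. AOP2 and GSTF11 are the darkest blue rows in epiRIL12, and on the first epiRIL12 array most of the 10 genes are bluer than on the second.

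Within epiRIL12 the 10 genes differed between arrays in one pattern, noticed after the values were seen. Replicate 1 was the lowest of the 3 epiRIL12 arrays for 9 of the 10, all except MYB29, while over all loci it was the lowest for 31.1%. Replicate 2 was the highest for 9 of the 10, all except MAM3, against 33.9% of all loci. The median deviation of the 10 genes from their epiRIL12 mean was -0.094 on replicate 1, 0.12 on replicate 2 and -0.013 on replicate 3. Over all loci, most of which have lower values than the 10 genes, these medians were 0.0097, 0.0022 and -0.013. In Col no array stood out in this way: each was the lowest for 3 or 4 of the 10, and the medians ran from -0.014 to 0.037.

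The 33 further genes followed in part, with 16 of 33 lowest on epiRIL12 replicate 1 and 19 of 33 highest on replicate 2. In the indole branch, which makes glucosinolates from tryptophan, 8 of 10 genes were lowest on replicate 1 but 6 were highest on replicate 3. For 7 genes of glucosinolate breakdown the counts were 4 lowest on replicate 1 and 5 highest on replicate 2. The median difference of the 10 genes was -0.060 without epiRIL12 replicate 1 and -0.14 without replicate 2, beside -0.10 over all arrays. The labels give the same growth, age and protocols for all of them.

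**Figure D4:**
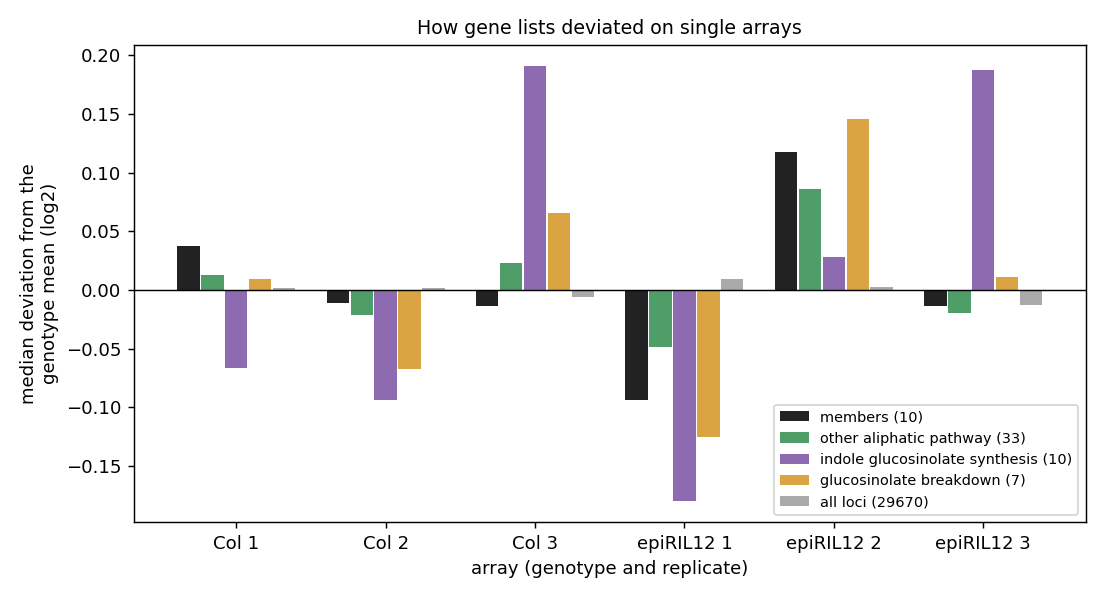
Median deviation from the genotype mean (log2, bars) of each gene list on each array, with the number of genes in the legend, where members are the 10 genes. The 10 genes are at -0.094 on epiRIL12 replicate 1 and 0.12 on replicate 2, and all loci stay within 0.013 of 0 on every array.

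Other loci with the same profile over the 6 arrays were sought by the distance between profiles scaled to a mean of 0 and an SD of 1, where 0 stands for the same shape. Of 4175 loci with a mean and an SD at or above the median of all loci, the nearest to the mean profile of the 10 genes were AT3G44220 (distance 0.363), KCO6 (0.461), a potassium channel gene, AT5G22875 (0.484), AT5G17280 (0.568) and GATA2 (0.570), a transcription factor gene. Among them AT3G44220 stood at 7.24, 7.22 and 7.27 in Col and at 6.77, 7.28 and 6.92 in epiRIL12. Their low value on epiRIL12 replicate 1 follows from how they were picked. Of the 8 further aliphatic, 5 indole and 4 breakdown genes among the 4175 loci, APK2 (place 41), GS-OH (place 71) and the myrosinase gene TGG2 (place 18) were among the nearest 100, and the others lay at places 204 to 4001. Among so many loci and over 6 arrays close profiles can arise without a link, and 2 of the 10 genes themselves varied enough to meet the same limits.

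Both neighbouring parts of glucosinolate metabolism were set beside the aliphatic genes. The 10 indole genes had a median difference of -0.0029, with 5 below and 5 above 0. In limma 0 were called and 0 were under 0.05 before adjustment, beside 0.974% and 7.04% of all loci. Their lowest p belonged to CYP81F2 (-0.27, SE 0.16), which modifies indole glucosinolates, followed by the regulator MYB51 (0.15, SE 0.14) and CYP79B3 (0.17, SE 0.20). With single arrays left out these ran from -0.41 to -0.15 for CYP81F2, from 0.037 to 0.27 for MYB51 and from 0.037 to 0.33 for CYP79B3. Of the 7 breakdown genes, a list chosen with earlier results of these data known, 1 was called, beside 0.974% of all loci. This was ESM1, a modifier of hydrolysis products, which rose by 0.81 (SE 0.084, limma adjusted p = 0.00681). The call was lost with both arrays numbered 3 left out (0.85, adjusted p = 0.153). It stood at 13.0 to 13.1 in Col and at 13.8 to 13.9 in epiRIL12. The other 6 were below 0, as were 56.6% of all loci, among them the myrosinases TGG1 (-0.19, SE 0.086) and TGG2 (-0.28, SE 0.12). The difference between these lists and the 10 genes was not tested.

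Aliphatic glucosinolate genes are known to be active along the vasculature, and 4 vascular markers were read on the same arrays. All 4 (SUC2, APL, XCP1 and IRX3) had means above Col in epiRIL12, as did 12874 of the 29670 loci. The median difference of the 4 was 0.18, beside -0.023 over all loci, and 0 were called, beside 0.974% of all loci. The mean log2 value of the 4 was 8.55 to 8.73 in Col and 8.83 to 8.87 in epiRIL12. The 2 guard cell markers, FAMA and KAT1, were both below 0 (median -0.12), as were 56.6% of all loci. The leaf mesophyll markers had a median of -0.025. The part of cell makeup in the values of the 10 genes was not tested.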

How the data were processed

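Total RNA of 6 samples was depleted of ribosomal RNA, random-primed, amplified and hybridised as double-stranded biotin-labelled cDNA to Affymetrix arrays, per the labels' protocols. The authors deposited log2 expression values for 29670 loci; how background was corrected, the arrays normalized or probes assigned to a genome build is not stated. They also deposited a log2 difference and an unadjusted p-value per locus, from a test that is not named. The value table numbers its loci, and names were joined by position: the group difference and the authors' difference had Pearson's r of 0.967 over loci in place and 0.166 shifted by 1. Of the loci, 29521 matched the RefSeq gene table (TAIR10.1), used for names, classes, overlaps and neighbours; MAM3 is listed there as IMS2.

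A linear model of genotype alone was fitted to every locus in R 4.3.3 with limma 3.58.1 (lmFit, eBayes, two-sided, no filter or pseudocount), and p-values were Benjamini-Hochberg adjusted over all loci. Errors of means are SDs (n = 3); differences carry the moderated standard error of limma and its 95% interval. The test was checked on simulated data with 200 changed loci. It recovered 52.2% of changes of 1 on the log2 scale and 91.0% of changes of 2. Of its 171 calls 11 were false. The simulated errors were normal, with SDs shuffled over loci, and no change smaller than 1 was planted. The check thus gives no recovery rate for differences of the size seen in the 10 genes. Arrays carry no counts, so their number limits the precision. Alternatives were median centring, quantile normalization, a replicate block, a filter on the 25% of loci with the lowest means, a trended robust eBayes, an adjusted p limit of 0.10, leaving out each array and, added after seeing the data, leaving out both arrays numbered 3. Named genes were the 10 genes, the 3 lowest p and every called gene of each other list, and the 5 nearest profiles; a few others illustrate. The genes and lists were chosen with earlier results of these data known. Summaries used Python 3.11.15 with pandas 2.3.3, and plots matplotlib 3.10.9.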

Additional observations from a re-analysis of the deposited data

How the results depend on the processing

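None of the 10 genes or the 33 further pathway genes was called under any alternative run or with any array left out; with both arrays numbered 3 left out, 151 loci in all were called against 289, with fewer samples in the fit. The median difference of the 10 genes stayed below 0 in each setting. MYB29 turned to -0.017 under median centring. Leaving out single arrays in turn gave ranges that crossed 0, namely -0.013 to 0.12 for MYB28, -0.050 to 0.091 for MYB29, -0.12 to 0.012 for CYP79F1, -0.15 to 0.061 for CYP79F2 and -0.24 to 0.0080 for MYB76 (-0.14 over all arrays); the cause was not tested. With the replicate number as a block 210 loci were called, 0 of them among the 43 pathway genes; AOP2 kept -0.45 (limma adjusted p = 0.529), and ESM1 lost its call (0.81, adjusted p = 0.0778), as it did without both arrays numbered 3 (0.85, 0.153). Deviations of same-numbered arrays had correlations over loci of -0.037, -0.072 and 0.13, not all over 0.1, so the numbers were not taken to pair the samples; Col replicate 1 with epiRIL12 replicate 2 had 0.12 and Col replicate 2 with epiRIL12 replicate 1 had 0.11. With 3 arrays per genotype, differences such as that of BCAT4 lie within the error.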
